A study of Homo sapiens with 5 samples.

Results

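The autophagy and lysosome regulators examined here were 42 named genes, and all 42 were found among the 26485 genes of the count table. They were chosen by symbol from knowledge of the pathway, with earlier results of these data known. They comprise the kinases and lipid kinases that start an autophagosome, the ATG proteins that build its membrane, the receptors that bring cargo to it, and regulators and membrane proteins of the lysosome. The study sequenced poly-A RNA of RPE1 cells, a widely used human cell line from the retinal pigment epithelium that the labels give as WT in genotype, in 5 libraries. Of these, 2 libraries came from cells given DMSO, the solvent control, 2 from cells given 0.2 μM doxorubicin and 1 from cells given 0.34 μM doxorubicin, each for 18 h. Doxorubicin is an anthracycline that intercalates into DNA and poisons topoisomerase 2, and the comparison asks how the mRNAs of these genes stood in treated against control cells. The concentrations are those of the sample names and of the study's RNA-seq methods, whereas the treatment descriptions in the labels and in the study's methods write μM where nM would match them.

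Autophagy is the route by which a cell wraps part of its cytoplasm in a double membrane and delivers it to the lysosome for degradation. The ULK1 kinase complex starts the process, a class III phosphatidylinositol 3-kinase complex marks the growing membrane with its lipid, and a ubiquitin-like conjugation system attaches small ATG8 proteins (the LC3 and GABARAP families) to that membrane. Receptors such as p62, the product of SQSTM1, bind both cargo and ATG8 proteins, and TFEB and TFE3 are transcription factors that switch on lysosomal and autophagy genes through an E-box. Much of the pathway is controlled on the proteins, by phosphorylation, cleavage and lipidation, which mRNA counts do not measure.

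The counts on genes summed to between 23773061 and 36725345 per library, and 14187 genes passed the filter on low counts, all 42 members among them. Levels are given as CPM, the counts scaled to a common library size, after TMM normalization, changes as log2 fold changes of the 3 pooled doxorubicin libraries against the 2 DMSO libraries with their standard error (SE), and a gene was called at an adjusted p under 0.01 in edgeR's quasi-likelihood test. The counts of the members ran from 2 to 29000 per library, with a median of 1497.5 for the mean over the libraries, and only MAP1LC3A had a mean count under 100. Of the retinal pigment epithelium markers, MITF (743 to 1503 counts) and OTX2 (601 to 887) were well covered and BEST1 (14 to 142) and PMEL (5 to 46) sparsely, while RPE65 (3 to 8), RLBP1 (0 to 3), TYR (0 to 5), TYRP1 (1 to 7) and TTR (0 to 1) were at or near 0, so that the labelled cell type was carried by part of its markers. The epithelial keratins were abundant and were higher in every doxorubicin library, KRT8 at 369 and 346 CPM in DMSO and 661, 636 and 661 CPM in doxorubicin, and KRT18 at 327 and 238 CPM in DMSO and 515, 334 and 460 CPM in doxorubicin. Among markers of other cell types, EPCAM had 0 to 1 counts, PECAM1 3 to 13 and COL1A2 6 to 13, while the fibroblast-type marker COL1A1 had 1028 to 7513. The leukocyte marker PTPRC stood at 5 and 7 counts with DMSO but at 25, 53 and 72 with doxorubicin, and the part of these markers in the changes given here was not tested. In bulk RNA, a change in the share of cells and a change in the RNA per cell cannot be told apart.

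DRAM1 was the only member called, and it stood well apart from the others. DRAM1 encodes a lysosomal membrane protein that is a known target of p53 and links it to autophagy. Its level was 26.7 and 29.8 CPM in the DMSO libraries, 85.4 and 85.4 CPM in the 0.2 μM libraries and 88.0 CPM in the 0.34 μM library. The groups did not overlap, and the doxorubicin libraries lay close together. The level was 3.05 times as high in doxorubicin (86.3 ± 1.47 CPM, SD, n = 3) as in DMSO (28.3 ± 2.17 CPM, SD, n = 2), and the log2 fold change was 1.61 ± 0.14 (SE, adjusted p = 0.00163). DRAM1 ranked 117th of the genes tested by its p. In the fits that each left out 1 library the log2 fold change stayed between 1.53 and 1.67, but the adjusted p passed 0.01 without DMSO replicate 2 (0.0123) and without the 0.34 μM library (0.0106). Against the 2 DMSO libraries, it was 0.0107 for the 0.2 μM libraries and 0.0201 for the 0.34 μM library in the edgeR fit of 3 conditions.

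The gene lies at chr12:101877580-101923612 on GRCh38.p14, on the plus strand, and overlaps no other annotated gene in RefSeq. The 250 bases before its annotated start, shown because it is the called member, are at chr12:101877330-101877579 on the same strand. They hold neither of the motifs searched in the members' promoters, the E-box CACGTG and the p53 decamer (a single copy of the repeat that p53 binds), so no letters are in capitals. The absence of a match says only that these letters are not in this window.

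DRAM1: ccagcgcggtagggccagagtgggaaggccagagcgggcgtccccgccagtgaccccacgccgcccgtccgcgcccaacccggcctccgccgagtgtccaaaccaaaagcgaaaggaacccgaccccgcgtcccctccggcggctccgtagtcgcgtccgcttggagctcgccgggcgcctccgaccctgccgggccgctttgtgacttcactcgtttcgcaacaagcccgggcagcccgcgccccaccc

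In all, 1 of 42 members was called (2.38%), against 4.02% of all genes tested. The called gene was higher, as were 1.29% of all genes, while 0 members were called lower, against 2.73% of all genes. DESeq2 on the same groups called 9 of 42, all higher (21.4%), against 12.9% of all genes in either direction and 5.83% higher. Those 9 were DRAM1, SQSTM1, LAMP1, BECN1, GABARAPL2, ATG4A, WIPI1, ATG13 and ATG16L2. With edgeR their adjusted p was between 0.00163 and 0.0594, and 8 members were under 0.05, against 13.6% of all genes.

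The log2 fold change was above 0 in 29 members and below 0 in 13, with a median of 0.23 and a range from -0.55 for ATG4C to 1.61 for DRAM1. Over all genes tested the median was 0.01 and 51.1% were above 0. The size was under 0.5 in 25 of 42 members (59.5%) and in 61.3% of all genes. The doxorubicin and DMSO libraries did not overlap in 20 of 42 members (47.6%), close to the 47.7% of all genes. By direction these were 18 members with every doxorubicin library higher (42.9%, against 24.3% of all genes) and 2 members with every one lower (4.76%, against 23.4%). The 95% confidence interval of the log2 fold change, not adjusted for the number of genes, lay above 0 in 13 members and below 0 in 1. Such intervals were also common among all genes. By p, OPTN, the last of these members, ranked 3455th of the 14187 genes tested. The next member, ATG4B, whose interval included 0, ranked 4497th. The share of all genes in each direction was not counted.

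**Figure D1:**
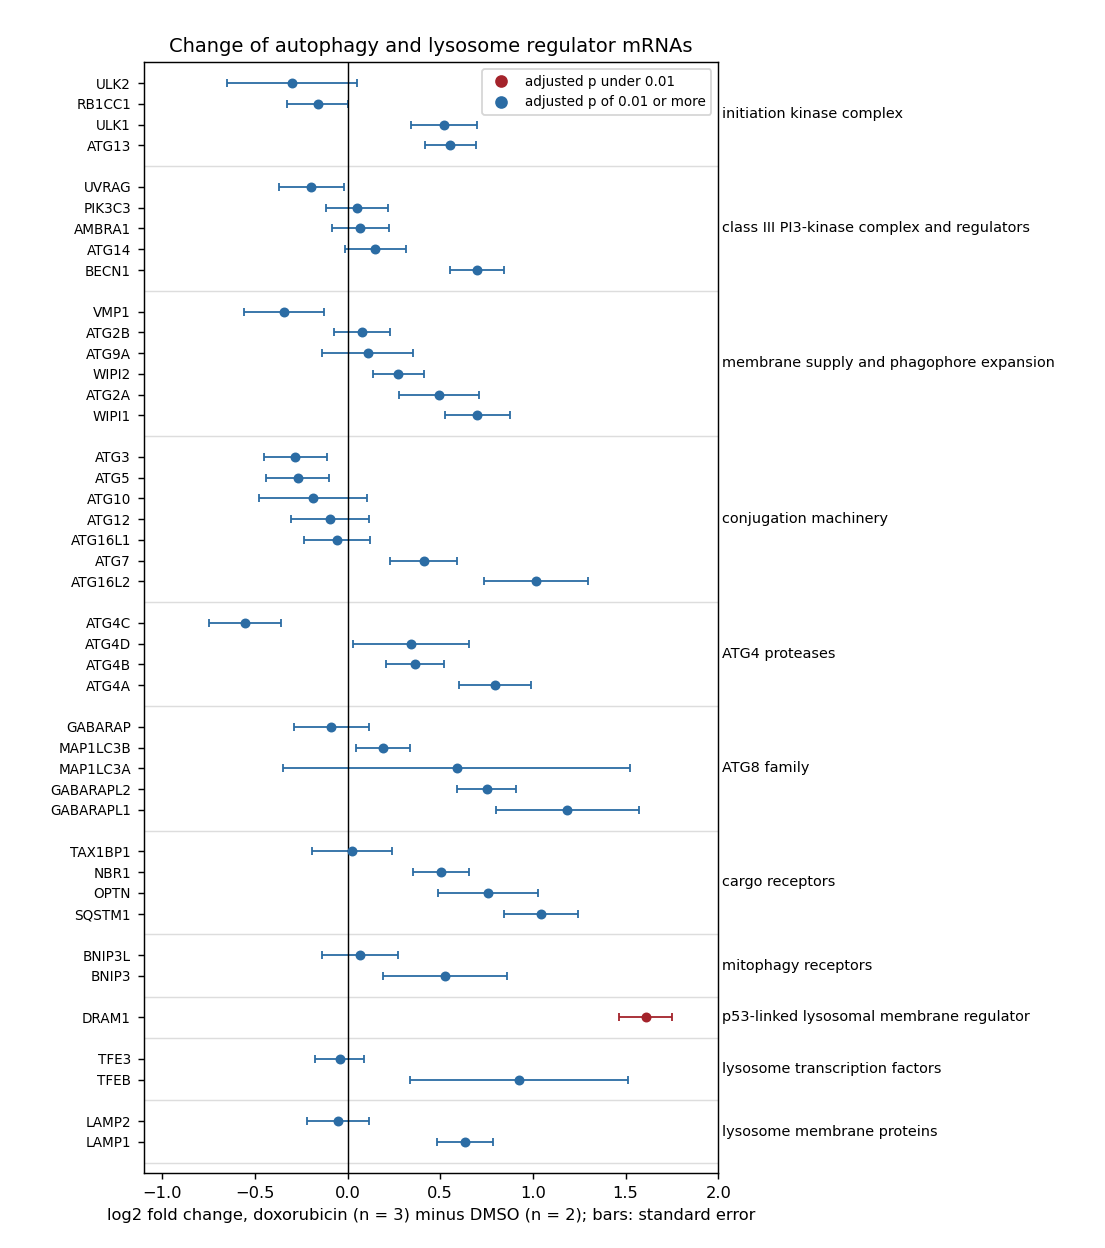
Log2 fold change of each of the 42 members, doxorubicin (n = 3) against DMSO (n = 2), on the horizontal axis, with members grouped by role on the vertical axis. Points are edgeR estimates, bars their standard errors, and red marks an adjusted p under 0.01. DRAM1 at 1.61 lies to the right of all others, the conjugation machinery lies mostly at or left of 0 apart from ATG7 and ATG16L2, and MAP1LC3A has the widest bar.

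None of the 4 members of the initiation complex was called, and it was divided by gene. ULK1, the kinase that starts autophagosome formation, had 66.0 and 66.7 CPM in DMSO, 98.2 and 77.8 CPM in 0.2 μM and 109 CPM in 0.34 μM doxorubicin. All 3 treated libraries lay above the controls, and the log2 fold change was 0.52 ± 0.18 (adjusted p = 0.104). ATG13, the scaffold that holds the kinase in its complex, had 87.9 and 95.3 CPM in DMSO against 129, 142 and 132 CPM in doxorubicin, a log2 fold change of 0.55 ± 0.14 (edgeR adjusted p = 0.0441, DESeq2 0.00799). For ATG13, too, every treated library was above both controls. ATG13 overlaps HARBI1 on the genome. The log2 fold change was -0.16 ± 0.17 for RB1CC1 (FIP200, the large scaffold) and -0.30 ± 0.35 for ULK2, the paralogue of ULK1, and their groups overlapped.

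In the class III PI3-kinase group, where no gene was called, BECN1 had the largest estimate. BECN1 encodes Beclin 1, the subunit on which the complex is assembled. Its level was 53.9 and 53.7 CPM in DMSO, 79.3 and 94.5 CPM in 0.2 μM and 88.2 CPM in 0.34 μM doxorubicin, with no overlap. The log2 fold change was 0.70 ± 0.15 (edgeR adjusted p = 0.0254, DESeq2 0.00111). The log2 fold changes of PIK3C3, the catalytic subunit (0.05 ± 0.17), ATG14 (0.15 ± 0.17) and UVRAG (-0.20 ± 0.17), which mark alternative forms of the complex, and AMBRA1 (0.07 ± 0.15), a Beclin 1 regulator, lay on either side of 0. The difference between BECN1 and these genes was not tested. RefSeq places BECN1 across CNTD1. Whether reads were counted by strand is not stated in these sources, so the BECN1 counts could include reads of CNTD1.

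Of the 6 members that supply membrane, WIPI1, which binds the PI3-kinase product on the growing membrane, differed the most. It had 26.0 and 21.2 CPM in DMSO, 37.4 and 42.3 CPM in 0.2 μM and 35.5 CPM in 0.34 μM doxorubicin. Its groups were separate, and the log2 fold change was 0.70 ± 0.18 (edgeR adjusted p = 0.0456, DESeq2 0.00674). WIPI1 overlaps ARSG and PRKAR1A on the genome, with the same limit on its counts as BECN1. The log2 fold changes of the lipid transfer proteins ATG2A and ATG2B were 0.49 ± 0.22 and 0.08 ± 0.15, that of the scramblase ATG9A 0.11 ± 0.25, that of WIPI2 0.27 ± 0.14 and that of VMP1, an endoplasmic reticulum membrane protein, -0.34 ± 0.22. VMP1 was high in only 1 library, at 160 CPM in DMSO replicate 1, and was at 101 CPM in DMSO replicate 2 and 108, 108 and 92.1 CPM in doxorubicin.

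The 7 conjugation genes, which charge ATG12 and the ATG8 proteins and attach them, had a median log2 fold change of -0.10, and 5 of them were below 0. ATG5, which joins ATG12 to form part of the ligase, had 35.9 and 42.7 CPM in DMSO and 35.6, 33.4 and 29.0 CPM in doxorubicin. The treated libraries were all lower, though the nearest values, 35.9 and 35.6 CPM, were almost equal, and the log2 fold change of -0.27 ± 0.17 had an adjusted p of 0.336. The estimates were -0.28 ± 0.17 for the E2-like enzyme ATG3, -0.19 ± 0.29 for ATG10, the E2-like enzyme of ATG12, -0.10 ± 0.21 for ATG12, -0.06 ± 0.18 for ATG16L1 and 0.41 ± 0.18 for the E1-like enzyme ATG7. ATG16L2, a paralogue of ATG16L1, had the largest estimate of the 7, at 7.36 and 5.64 CPM in DMSO and 13.5, 9.81 and 16.1 CPM in doxorubicin. Its groups did not overlap, with a log2 fold change of 1.02 ± 0.28 and an adjusted p of 0.0594 by edgeR and 0.00917 by DESeq2. It overlaps FCHSD2 on the genome.

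The ATG4 proteases, which trim ATG8 proteins before conjugation and release them afterwards, included the members with the largest estimate below 0 and an estimate above 0 that only DESeq2 called. ATG4C had 11.1 and 11.3 CPM in DMSO and 7.08, 7.98 and 7.88 CPM in doxorubicin, with no overlap. Its log2 fold change was -0.55 ± 0.19, its adjusted p was 0.108 by edgeR and 0.0654 by DESeq2, and its estimate stayed between -0.58 and -0.49 when each library was left out. ATG4A had 13.4 and 10.3 CPM in DMSO and 19.0, 20.7 and 21.9 CPM in doxorubicin, also with no overlap. Its log2 fold change was 0.79 ± 0.19 (edgeR adjusted p = 0.0420, DESeq2 0.00456). ATG4A overlaps PSMD10 on the genome, with the same limit on its counts as BECN1. The log2 fold changes of ATG4B and ATG4D were 0.36 ± 0.16 and 0.34 ± 0.31. The difference between ATG4A and ATG4C was not tested.

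The ATG8 proteins fall into an LC3 and a GABARAP branch, and the largest estimates were in the latter. GABARAPL1 had 15.1 and 6.62 CPM in DMSO, 27.1 and 18.3 CPM in 0.2 μM and 28.8 CPM in 0.34 μM doxorubicin. The groups did not overlap, but the DMSO libraries differed from each other by 1.19 on the log2 scale, as much as the log2 fold change of 1.18 ± 0.39, whose adjusted p was 0.0896 by edgeR and 0.0150 by DESeq2. Without 1 library at a time the estimate ranged from 0.69 to 1.90. GABARAPL1 overlaps GABARAPL1-AS1 on the genome, with the same limit on its counts as BECN1. GABARAPL2 differed less but with a smaller spread, at 32.5 and 36.5 CPM in DMSO and 52.0, 59.0 and 63.3 CPM in doxorubicin. Its log2 fold change was 0.75 ± 0.16 (edgeR adjusted p = 0.0284, DESeq2 0.00157), and its groups did not overlap. GABARAP itself was at -0.09 ± 0.20, with 212 and 138 CPM in DMSO on either side of the 155 to 171 CPM in doxorubicin.

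MAP1LC3B, the LC3 gene most used as a marker of autophagosomes, had 157 and 147 CPM in DMSO and 158, 185 and 177 CPM in doxorubicin. The treated libraries were higher, the lowest of them by little, and the log2 fold change was 0.19 ± 0.14 (adjusted p = 0.421). The 95% confidence interval ran from -0.15 to 0.53. A near-identical gene, MAP1LC3B2, stood at 80 and 181 counts with DMSO (3.05 and 7.09 CPM). With doxorubicin it had 204, 230 and 352 counts (7.89, 9.56 and 9.70 CPM). Reads could be split between MAP1LC3B and MAP1LC3B2. MAP1LC3A stood at 2 and 13 counts with DMSO but at 6, 21 and 9 with doxorubicin, too few to place its log2 fold change of 0.59 ± 0.93.

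**Figure D2:**
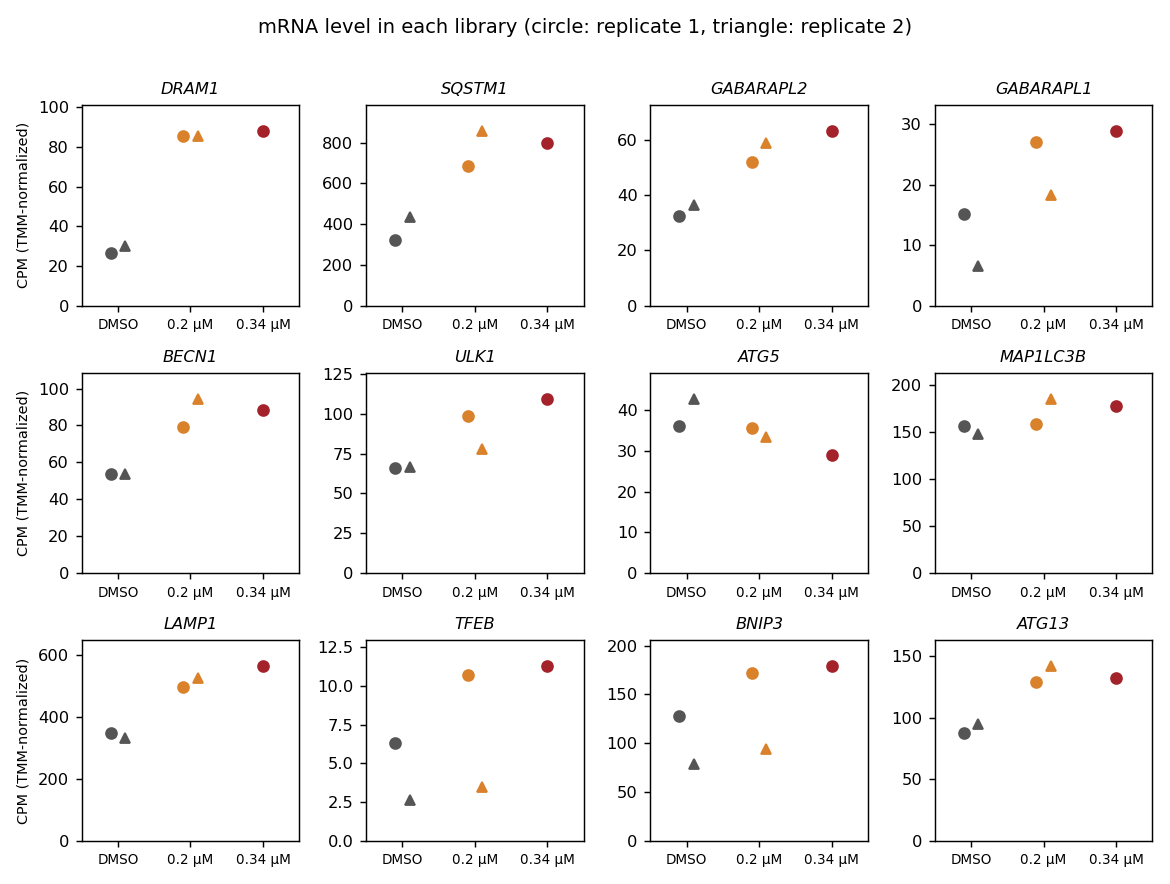
TMM-normalized CPM of 12 members in each library (vertical axis, linear from 0, a panel per gene) by treatment (horizontal axis). Each symbol is 1 library, a circle for replicate 1 and a triangle for replicate 2. DRAM1 shows tight groups far apart, SQSTM1, BECN1 and LAMP1 separated groups, and TFEB and BNIP3 groups that overlap.

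The cargo receptors had the highest median log2 fold change of the roles with 4 or more members, at 0.63, and 4 of 4 were above 0. SQSTM1 encodes p62, which carries ubiquitinated cargo to autophagosomes and is itself degraded there. It had 324 and 434 CPM in DMSO, 685 and 857 CPM in 0.2 μM and 799 CPM in 0.34 μM doxorubicin. The groups did not overlap, and the level was 2.06 times as high in doxorubicin (780 ± 87.6 CPM, SD, n = 3) as in DMSO (379 ± 77.3 CPM, SD, n = 2). The log2 fold change was 1.04 ± 0.20 (edgeR adjusted p = 0.0200, DESeq2 3.93e-05). SQSTM1 overlaps MGAT4B and MRNIP on the genome. OPTN, a receptor in selective autophagy of mitochondria and bacteria, had 155 and 83.0 CPM in DMSO and 199, 186 and 218 CPM in doxorubicin. Its groups did not overlap, its log2 fold change was 0.76 ± 0.27 and its adjusted p was 0.112. The DMSO libraries of OPTN differed by 0.90 on the log2 scale, and leaving out DMSO replicate 1 gave an estimate of 1.27 and leaving out DMSO replicate 2 one of 0.36. NBR1, which acts with p62, was at 0.50 ± 0.15 (adjusted p = 0.0713) and TAX1BP1, another ubiquitin-binding receptor, at 0.02 ± 0.22.

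Neither mitophagy receptor separated the groups. BNIP3, an outer mitochondrial membrane protein that is also induced by hypoxia, had 127 and 78.4 CPM in DMSO, 172 and 94.0 CPM in 0.2 μM and 179 CPM in 0.34 μM doxorubicin. The second 0.2 μM library lay between the controls, and the log2 fold change of 0.53 ± 0.33 had an adjusted p of 0.336. With the replicate number as a block, edgeR gave BNIP3 a log2 fold change of 0.37 (adjusted p = 0.0624). BNIP3 overlaps PPP2R2D on the genome, with the same limit on its counts as BECN1. BNIP3L, the paralogue of BNIP3, was at 0.07 ± 0.21.

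Of the transcription factors of the lysosome, TFEB varied between libraries of the same treatment more than between treatments. It had 6.33 and 2.62 CPM in DMSO, 10.7 and 3.49 CPM in 0.2 μM and 11.3 CPM in 0.34 μM doxorubicin. The libraries labelled as the second replicate were the lowest in both conditions, and the groups overlapped. The log2 fold change was 0.92 ± 0.59, its 95% confidence interval ran from -0.48 to 2.33 and its adjusted p was 0.337. COL1A1, a collagen gene listed as a fibroblast-type marker, was low in the same libraries (287 and 64.5 CPM in DMSO, 189 and 42.7 CPM in 0.2 μM, 151 CPM in 0.34 μM), whereas COL1A2 was at 0.24 to 0.46 CPM throughout, and their part in the TFEB values was not tested. For TFEB, each 0.2 μM library was above the DMSO library of the same replicate number. With that number as a block, edgeR gave TFEB a log2 fold change of 0.65 (adjusted p = 0.0489). Whether same-numbered libraries were paired is unknown. TFE3 was even over the libraries, at 112 and 123 CPM in DMSO and 114, 113 and 117 CPM in doxorubicin. Its log2 fold change was -0.04 ± 0.13.

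LAMP1 and LAMP2, the main glycoproteins of the lysosome membrane, had different estimates. LAMP1 had 349 and 334 CPM in DMSO, 497 and 528 CPM in 0.2 μM and 564 CPM in 0.34 μM doxorubicin. The groups did not overlap, and the log2 fold change was 0.63 ± 0.15 (edgeR adjusted p = 0.0385, DESeq2 0.00109). LAMP2 had 246 and 321 CPM in DMSO and 268, 285 and 269 CPM in doxorubicin. The treated libraries of LAMP2 lay between the controls, at a log2 fold change of -0.05 ± 0.17, and the difference between the genes was not tested.

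TFEB and TFE3 bind the CLEAR element, whose core is the E-box CACGTG, and the promoters of the members were searched for it in RefSeq on GRCh38.p14, from 250 bases before to 50 after the annotated start. The E-box reads the same on both strands. It was present in 4 of the 46 member promoters (8.7%), which covered 36 of 42 members, and in 7.3% of all 35093 promoters. The 4 genes were ATG14, ATG3, BNIP3 and LAMP1. The p53 decamer, searched on both strands, was present in 1 member promoter (2.2%), that of GABARAPL1 at base -234, and in 6.6% of all promoters. A match is a description of the letters and not a bound site.

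LAMP1 is shown for its number of E-boxes, which was noticed after its values were seen. Its promoter held 6, and it was the only promoter of the 35093 with that many. The stretch from 200 bases before to 5 after the start lies at chr13:113297039-113297243, plus strand, with the E-boxes in capitals.

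LAMP1: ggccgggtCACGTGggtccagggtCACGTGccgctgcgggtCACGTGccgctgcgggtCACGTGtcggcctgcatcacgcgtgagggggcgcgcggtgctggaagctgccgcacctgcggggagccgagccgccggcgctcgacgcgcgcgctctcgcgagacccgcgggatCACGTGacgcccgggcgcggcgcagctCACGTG

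The other members have their E-boxes in the following windows of 26 bases, shown 5′ to 3′ on the gene's own strand with the E-box in capitals. ATG3 is at chr3:112561965-112561990, minus strand, ATG14 at chr14:55411836-55411861, minus strand, and BNIP3 at chr10:131982042-131982067, minus strand. The E-box began at base -18, -21 and -134 from the start of ATG3, ATG14 and BNIP3. ATG3 held another E-box after its start, at base 6. In GAA, the gene of the lysosomal enzyme acid alpha-glucosidase and no member, the window at chr17:80101540-80101565, plus strand, holds the full CLEAR palindrome, in which GT precedes the E-box and AC follows it.

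ATG3: tttctcacgtCACGTGccgggagagt
ATG14: aacaaaatccCACGTGactggctctc
BNIP3: gcacgcgccgCACGTGccacacgcac
GAA: tcccgccggtCACGTGacccgcctct

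Members with an E-box had estimates on both sides of 0. The log2 fold change was -0.28 in ATG3, 0.15 in ATG14, 0.53 in BNIP3 and 0.63 in LAMP1, and 0 of the 4 were called by edgeR, while DESeq2 called LAMP1. Among the other genes of the pathway, described next, 28 of 161 promoters held the E-box (17.4%), with 21.2% for the hydrolases and 31.2% for the V-ATPase genes. Of the 24 tested genes with one, 21 had an estimate above 0 and 1 was called, GAA, which was shown for that reason after its values were seen. Over all 150 tested genes of these lists, with or without an E-box, 120 were above 0 (80%) and 9 were called (6%). Of all genes tested, 51.1% were above 0 and 4.02% were called.

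The other genes of the pathway were taken from 8 lists compiled by role, with earlier results of these data known. Their shares are therefore a description and not a test. The lists held 157 genes, 156 of them in the count table and 150 tested. Of these, 9 were called and all 9 were higher (6%), against 1.29% of all genes, and the median log2 fold change was 0.39. The estimate was above 0 in 120 of 150 (80%, against 51.1% of all genes), and 85 had every doxorubicin library above both controls (56.7%, against 24.3%). DESeq2 called 38 higher (25.3%, against 5.83% of all genes) and 1 lower, the lower being RHEB, the activator of mTORC1, which was named for this count after its values were seen.

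The lysosomal hydrolases and their cofactors held 4 of the 9 calls, or 10% of 40 genes, against 1.29% of all genes called higher. Of the 40, 35 were above 0 (87.5%, against 51.1% of all genes), and the median was 0.56. In 25 there was no overlap and every doxorubicin library was higher (62.5%, against 24.3% of all genes), while 0 had every one lower (against 23.4%). FUCA1, which removes fucose from glycoproteins, had 20.9 and 18.5 CPM in DMSO and 73.8, 96.0 and 94.9 CPM in doxorubicin, a log2 fold change of 2.16 ± 0.19 (adjusted p = 0.00156). IDUA, which degrades glycosaminoglycans, was at 1.78 ± 0.25 (adjusted p = 0.00722), GAA at 1.64 ± 0.23 (0.00768) and ARSA, a sulfatase, at 1.47 ± 0.18 (0.00427). For these 4 genes the treated libraries were all above the controls. IDUA overlaps SLC26A1 on the genome. The 17 V-ATPase genes encode the proton pump that acidifies the lysosome and its accessory subunits. Of these, 14 were above 0 (82.4%, against 51.1% of all genes), with a median of 0.61, and 1 was called higher (5.88%, against 1.29%). ATP6AP2, an accessory subunit, was the only one called, with 96.9 and 91.1 CPM in DMSO and 171, 173 and 178 CPM in doxorubicin (0.89 ± 0.13, adjusted p = 0.00962), while DESeq2 called 8, all higher (47.1%, against 5.83% of all genes).

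The remaining 4 calls came from the lists of mTORC1 and AMPK control, core autophagy and selective receptors. SESN2 and SESN1 encode sestrins, p53 targets that restrain mTORC1, with log2 fold changes of 2.38 ± 0.17 and 2.33 ± 0.23 (adjusted p = 0.000891 and 0.00208). SESN2 had 11.4 and 12.8 CPM in DMSO and 57.7, 62.8 and 68.0 CPM in doxorubicin. TP53INP1, a p53-induced protein that binds ATG8 proteins, was at 2.27 ± 0.27 (adjusted p = 0.00422), and PINK1, the kinase that marks damaged mitochondria, at 0.98 ± 0.14 (0.00761). None of these genes had overlapping groups. On the genome SESN1 overlaps ARMC2, TP53INP1 overlaps NDUFAF6 and PINK1 overlaps PINK1-AS, with the same limit on their counts as BECN1. The numbers called and above 0 were 1 and 9 of 12 other core autophagy genes (median log2 fold change 0.38), 1 and 9 of 14 other selective receptors (0.12), 2 and 19 of 27 mTORC1 and AMPK genes (0.27), 0 and 12 of 15 fusion and tethering genes (0.27), 0 and 16 of 17 other lysosome membrane genes (0.29) and 0 and 6 of 8 other transcriptional regulators (0.28). Of all genes tested, 4.02% were called, 1.29% were called higher and 51.1% were above 0. In lists this short, 0 or 1 call is too few to set against those shares. Calls among the 9 called genes depended on single libraries: 3 or 4 remained when 1 doxorubicin library was left out. Fewer remained when a DMSO library was left out, which left a lone control. In the fits without 1 doxorubicin library 1.28% to 1.48% of all genes were called, against 4.02% with all libraries.

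**Figure D3:**
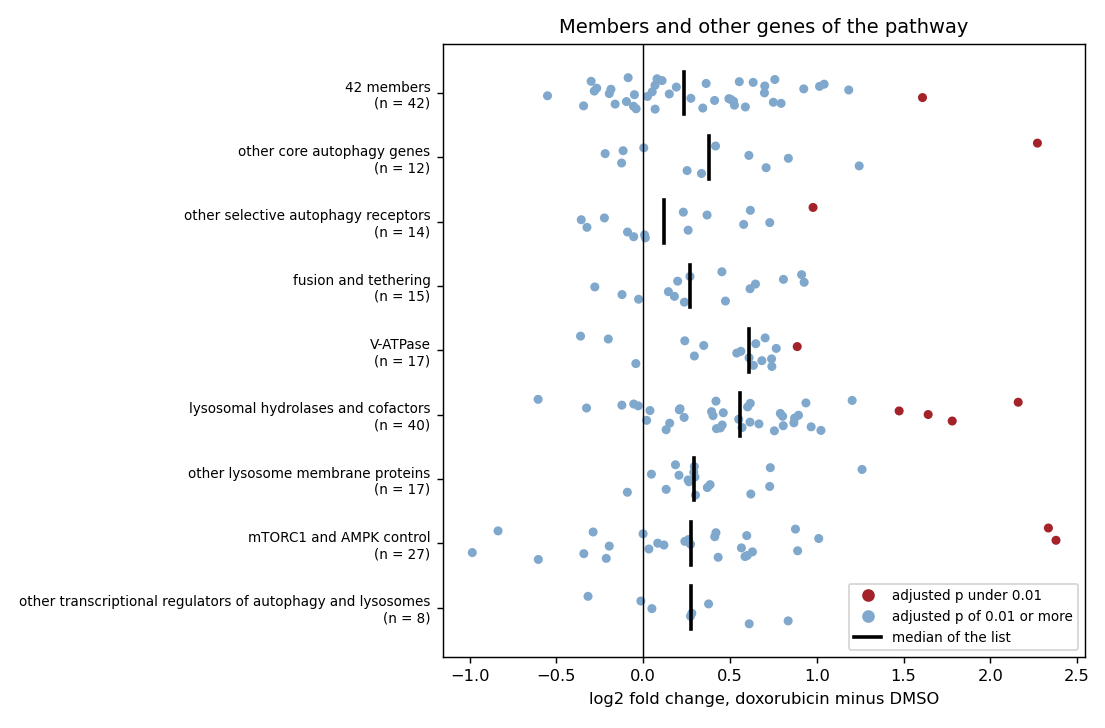
Log2 fold change, doxorubicin (n = 3) against DMSO (n = 2), of each tested gene (horizontal axis) of the 42 members and the 8 other lists (vertical axis). Points are genes, red marks an adjusted p under 0.01 and short vertical bars are medians. The median is 0.23 for the members, 0.56 for the hydrolases and 0.61 for the V-ATPase genes, and the red points all lie right of 0.

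No member was called between the doses. Between 0.34 μM and 0.2 μM, 0 of 42 members were called by edgeR or DESeq2, as were 0 of all genes by either, and 0 members had an unadjusted p under 0.05 by either tool. The lowest unadjusted p of a member was 0.261 by edgeR and 0.299 by DESeq2. The log2 differences (0.34 μM minus 0.2 μM) ranged from -1.13 for MAP1LC3A to 0.66 for TFEB, and that of DRAM1 was 0.04 ± 0.25. The median absolute difference was 0.13 for the members and 0.16 for all genes tested. The first 0.2 μM library lay closer to the 0.34 μM library (chi-square of their counts 9.01 per degree of freedom) than to the second 0.2 μM library (75.3). With 1 library at 0.34 μM, its spread was taken from the other groups. A difference larger than its SE also went uncalled, as for ATG16L2 (0.47 ± 0.39), so the absence of calls does not show equal levels.

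In most members the DMSO libraries differed by more than the estimated change. The DMSO pair was apart by more than 0.5 on the log2 scale in 12 of 42 members, and in 36.9% of all genes. The 0.2 μM pair was so in 7 members, which was not counted over all genes. In 25 of 42 members the DMSO difference was larger than the size of the log2 fold change, against 49% of all genes. The members' median absolute log2 difference was 0.32 within the DMSO pair and 0.15 within the 0.2 μM pair. Over all genes tested these medians were 0.36 and 0.29. BECN1 (0.01), ULK1 (0.01), ATG4C (0.02) and LAMP1 (0.06) had the most even controls of the members with values given in full, and TFEB (1.25), GABARAPL1 (1.19) and MAP1LC3A (1.97) the least. Of the 41 members tested in all leave-one-out fits, 26 kept the sign of their estimate, 21 above 0 and 5 below. Signs were not counted over all genes, so these numbers have no background to be set against.

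**Figure D4:**
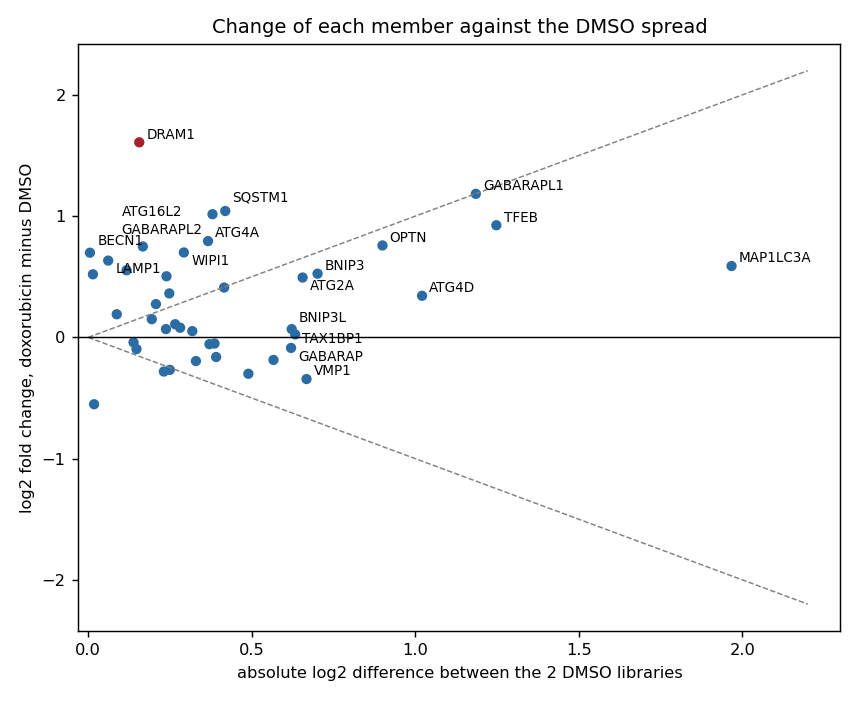
Log2 fold change of each of the 42 members, doxorubicin against DMSO (vertical axis), by the absolute log2 difference between the 2 DMSO libraries (horizontal axis). Points are genes, red marks an adjusted p under 0.01, and on the dashed lines both quantities are equal in size. DRAM1 lies far above the line, and 25 members lie between the lines.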

How the data were processed

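The authors mapped paired-end reads of poly-A RNA from 5 RPE1 libraries to hg38 with STAR and deposited raw counts per gene, counted over the iGenomes annotation with featureCounts (Rsubread). Tool versions, the strand setting and the handling of multi-mapped reads were not given in the sources used here. A deposited table of differential expression (the authors' fold changes and p-values) was not used. ChIP-seq and Hi-C data were not analysed here.

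edgeR 4.0.16 (R 4.3.3) was run on the counts, using TMM normalization, its filter on low counts (minimum count 10, minimum total 15), no covariates and the quasi-likelihood test over all genes with Benjamini-Hochberg adjustment at 0.01. The doxorubicin doses were pooled, as in the study's methods. DESeq2 1.42.0 and limma 3.58.1 served as alternatives, along with RLE normalization, no filter, single doses, leaving out each library and a replicate block. SE was the log2 fold change over the square root of F. The pipeline was tested on simulated data. Pairs of libraries of 1 condition differed by a chi-square of 117 (DMSO) and 75.3 (0.2 μM) per degree of freedom, and the closest pair, the first 0.2 μM and the 0.34 μM library, by 9.01, all above sampling noise, so all were counted as separate libraries. The study calls its libraries biological replicates, but nothing says they came from separate cultures, so p-values measure the spread between libraries.

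The members and lists were chosen with earlier results of these data known. Values in every library are given for called members, the 10 with the largest change and 10 fixed examples, and of the other pathway genes the called ones are named. ATG13, ATG4C, MAP1LC3A, VMP1, GABARAP, TFE3 and LAMP2 were given in full after their values were seen. Positions come from RefSeq (GRCh38.p14), where 27 of 42 members overlap another gene.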

Additional observations from a re-analysis of the deposited data

How the results depend on the processing

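The counts of called genes moved with the tool and the threshold. Of the 42 members, 1 was called, against 4.02% of all genes. This was 8 at a threshold of 0.05 (13.6% of all genes) and 9 with DESeq2 (12.9%). It was 2 without the filter on low counts (SQSTM1 and DRAM1, 4.92%), and 0 for 0.2 μM alone against DMSO (1.21%). It was 0 to 1 when 1 library was left out, being 0 without DMSO replicate 2 and without the 0.34 μM library. Of the other pathway genes 9 were called, against 38 at a threshold of 0.05, 39 with DESeq2, 14 without the filter, 3 for 0.2 μM, 1 for 0.34 μM and 0 to 4 when 1 library was left out. With limma voom the counts were 1 and 10 (3.71% of all genes), and with RLE normalization 1 and 9 (3.98%). Leaving out 1 doxorubicin library, 1.28% to 1.48% of all genes were called. The dose comparison gave 0 under every alternative run. Without DMSO replicate 2, 0.335% of all genes were called. Under DESeq2 the adjusted p of 8 members moved under the threshold. The cause of these shifts was not tested. Over the alternatives the median log2 fold change of all genes lay between -0.002 and 0.04 and that of the members between 0.19 and 0.29. The estimates of 9 members without DMSO replicate 2 and of 6 without DMSO replicate 1 changed sign, none of them called.

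With the replicate number as a block, 4 members (BECN1, GABARAPL1, SQSTM1 and DRAM1) and 24 other pathway genes were called, with 10.9% of all genes called in that fit against 4.02% without the block. With the DMSO and 0.2 μM libraries alone these were 3 and 12, with 8.99% of all genes. The labels give a number only to the second replicates and do not say whether same-numbered libraries share a culture or day, which is unknown. The differences between replicates 1 and 2 correlated between DMSO and 0.2 μM (r = 0.53 across 14187 genes, which are not independent).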
